A study of Mus musculus with 6 samples.

Results

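Endothelial cells, the lining of the blood vessels, were examined in the hypothalamus of ob/ob mice. Their cells were those that the authors' cell type label calls endothelial in the R50E libraries, and there were 1266 of them among 20151 cells. All mice of the group were male ob/ob animals, which lack leptin and are obese and diabetic, were 11 weeks old, and had received 3 µg of FGF1 R50E, a variant of fibroblast growth factor 1, into a cerebral ventricle. They were killed on day 5. Cells were dissociated with a neural tissue kit and profiled with 10x Genomics 3′ v2 chemistry, which counts each captured molecule once as a unique molecular identifier (UMI). The labels name 6 such mice, and cells of 4 of them (mice 3, 4, 30 and 34) were in the table. Because all labelled mice carry the same genotype and treatment, no effect of R50E or of the ob/ob mutation could be estimated, and the comparisons below lie within the mice. Endothelial cells made up 6.07%, 5.47%, 7.49% and 6.37% of the cells of mice 3, 4, 30 and 34, with 448, 174, 225 and 419 cells. The mean share of endothelial cells among all cells was 6.35%, and it was 8.69% with astrocytes, the most abundant type over the 4 mice together, left out.

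Brain endothelium forms the blood-brain barrier. Tight junctions seal the cells to each other, carriers bring in glucose, amino acids and hormones, and pumps send lipophilic compounds back into the blood. Wnt ligands of the neural tissue, acting through beta-catenin, maintain this program. The vessel wall also holds mural cells, pericytes on capillaries and smooth muscle cells on arterioles, which share a basement membrane with the endothelium. In the median eminence of the hypothalamus some capillaries are fenestrated, with Plvap in the diaphragms of their pores.

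The endothelial sums held 583854, 230808, 263510 and 611509 UMIs in mice 3, 4, 30 and 34. Median UMIs per endothelial cell lay between 949 and 1192, and the median mitochondrial share between 10.2% and 11.7%. Libraries of mice 3 and 34 lay closest to each other, with a chi-square per degree of freedom of 1.44 between their endothelial sums against 2.17 to 2.63 for the other pairs. No pair of libraries agreed within sampling noise. Of 19954 distinct barcodes, 194 occurred in more than 1 mouse, 2 of them among endothelial cells. Mouse 30 stood apart in several genes described below. Its endothelial cells held 98.7 CPM (counts scaled to a total of 1000000) of 4 Y-linked genes, against 175 to 243 CPM in the other 3 mice, although all mice are labelled male. Mouse 30 also contributed 44 of the 68 vascular leptomeningeal cells. That type was left out of the comparison between types. Mice 3, 4 and 34 had only 6, 12 and 6 such cells, and 20 per mouse were needed. Levels are CPM of the summed UMIs. A 3′ UMI count is not divided by gene length, so levels are compared between cells and not between genes.

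The label was first checked against defining endothelial genes. Cldn5 encodes the main claudin of brain tight junctions (GRCm38, GENCODE M21, chr16:18776847-18778262, plus strand). Its level was 1002, 1451, 854 and 839 CPM in mice 3, 4, 30 and 34. Oligodendrocyte precursor cells, the highest of 7 other types, held 12.3 CPM of it. Mouse 4 had the highest Cldn5 level, and the lowest endothelial level of any mouse was far above every other type. Flt1 (chr5:147561604-147726011, minus strand), a receptor for VEGF, the vascular growth factor, stood at 2427 ± 79.3 CPM (SD, n = 4), and its highest level elsewhere was 111 CPM in tanycytes, the glial cells of the floor of the third ventricle. Pecam1 (chr11:106654217-106750628, minus strand), an adhesion molecule of endothelial junctions, stood at 396, 412, 379 and 348 CPM, against 10.1 CPM in microglia. A Flt1 UMI was found in 88.0% of endothelial cells and in 1.15% of astrocytes, at median depths of 1064 and 851 UMIs. Cldn5 was found in 61.7% and 0.338% of these cells, and Pecam1 in 35.5% and 0.288%.

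**Figure D1:**
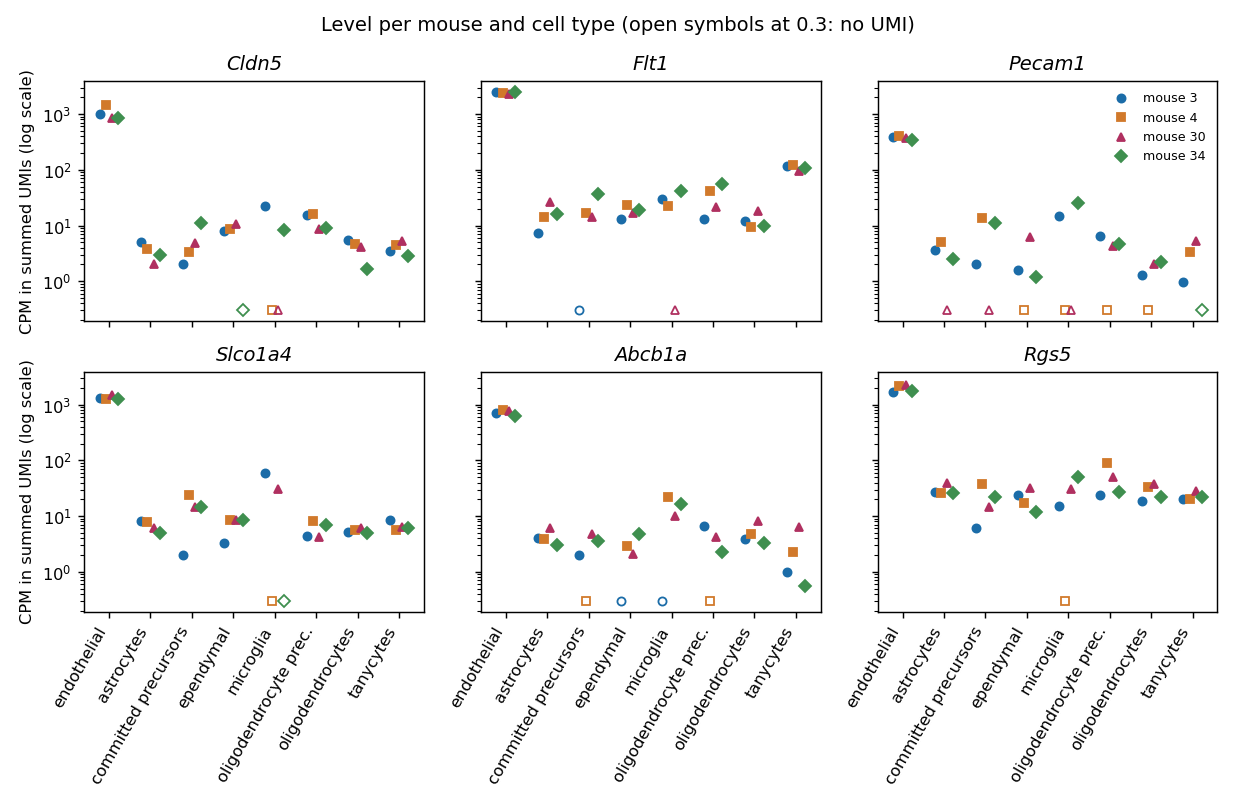
Level of 6 genes in CPM (log axis) per mouse, 1 symbol per mouse, in endothelial cells and the 7 other types; open symbols mark sums without a UMI. All 4 endothelial values of Cldn5, between 839 and 1451 CPM, lie above every value of the other types.

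A rule of size described which genes were high in these cells: at least 20 CPM on average and at least 4-fold above each of the 7 other types in every mouse. It held for 206 of 6410 genes at 20 CPM, or 3.21%. Cell type labels rest on expression, so these numbers describe the cells and test nothing. The 206 genes include mural genes, 6 of 9 pericyte genes and 2 of 4 smooth muscle genes at 20 CPM, and 140 of 6053 genes fulfilled the rule once cells with a mural UMI were left out. Of 26 endothelial identity genes, a list chosen with earlier results of these data known, 23 fulfilled the rule. The summed list stood at 14855, 13821, 13681 and 14584 CPM, and 1264 of the 1266 cells held at least 1 of its UMIs. The 3 members that did not fulfil the rule were Eng, Fli1 and Cd34. Fli1, an ETS family transcription factor that blood cells also use, had 222 CPM in endothelial cells and 122 CPM in microglia. Among genes at 100 CPM or more, those with a large ratio to the next type included Adgrl4, an adhesion receptor with 411, 347, 455 and 355 CPM and a ratio of 115. Cdh5, the cadherin of endothelial junctions, had 338 ± 31.1 CPM and a ratio of 81.6, and Egfl7, a secreted endothelial protein, 1009 ± 156 CPM and a ratio of 76.0. Ly6c1, a surface protein used as an endothelial marker, stood at 2375 ± 361 CPM with a ratio of 81.4 (SD, n = 4 for each). Sox17, a transcription factor of the endothelium, had 202 UMIs in endothelial cells and only 3 in oligodendrocytes, its next type, too few for a ratio.

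Promoters of the genes that fulfilled the rule were searched for letters that endothelial transcription factors are known to bind, in windows of RefSeq on GRCm38.p6 from 250 bases before to 50 after a start. Windows were found for 141 of the 206 genes, 185 windows in all, and both strands were read. The core CCGGAA of ETS factors was in 8.65% of these windows, 26.4% of those of all genes at 20 CPM and 14.9% of all windows in the table. CTTTGA, a core of LEF and TCF, the partners of beta-catenin, was in 15.1%, 11.4% and 16.0%. The composite AACAGGAA, which FOX and ETS factors can bind jointly and whose first letters can overlap with the end of the other motifs, was in 3.24%, 2.19% and 2.65%, which is 6 windows of the described genes. These shares are descriptions, and no binding was measured.

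The 6 stretches are shown because they are the only windows of these genes with the composite. Each is read along the strand that holds the composite, which is in capitals, with 10 bases on either side. They lie at chr2:26580981-26581008 (plus strand, Egfl7), chr3:137340895-137340922 (minus strand, Emcn, which encodes a mucin-like surface protein), chr6:129180451-129180478 (plus strand, Clec2d), chr8:71395847-71395874 (plus strand, Ushbp1), chr10:12861728-12861755 (plus strand, Utrn) and chr2:77170622-77170649 (plus strand, Ccdc141).
Egfl7: ctgggagacaAACAGGAAggccatctct
Emcn: atgggatttgAACAGGAAgagacccttc
Clec2d: accagaagcaAACAGGAAagtcagtctc
Ushbp1: ggggctgggaAACAGGAAgcccccctac
Utrn: atgaatacctAACAGGAAaagagaaagt
Ccdc141: aaaaggaaagAACAGGAAgttaaaaata
In Egfl7 and Clec2d the composite reads along the gene's own strand, and in the other 4 it reads against it. Emcn stood at 255, 277, 247 and 258 CPM in mice 3, 4, 30 and 34, and Utrn, the utrophin gene, at 426, 459, 482 and 388 CPM.

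Barrier genes were described next. Of 19 carriers of nutrients and hormones, all were above 20 CPM and 10 fulfilled the rule of size, against 3.21% of all genes. Slco1a4, an organic anion carrier, stood at 1312, 1243, 1484 and 1256 CPM, and its next type, microglia, at 22.6 CPM. Slco1c1, the thyroxine carrier, stood at 624 ± 40.7 CPM against 51.8 CPM in astrocytes. Slc7a5, which carries large neutral amino acids, had 510 and 469 CPM in mice 3 and 34, and 845 and 899 CPM in mice 4 and 30. The glucose carrier Slc2a1 stood at 1321, 1243, 1875 and 1269 CPM, with mouse 30 above the other 3. Ependymal cells, which line the ventricles, held 262 CPM of Slc2a1, and it missed the rule in at least 1 mouse. Mfsd2a, a lipid carrier of barrier capillaries, was not higher here than elsewhere, with 152 ± 29.2 CPM against 183 CPM in oligodendrocyte precursor cells. Insr, the insulin receptor, had 99.3, 73.7, 186 and 94.8 CPM, again highest in mouse 30 (SD, n = 4 for all means).

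All 3 efflux pumps above 20 CPM fulfilled the rule, against 3.21% of all genes. Abcb1a, which encodes P-glycoprotein, stood at 699, 802, 767 and 633 CPM, Abcg2 at 447, 394, 558 and 402 CPM, and Abcc4 at 110, 143, 144 and 134 CPM. The highest level of any of the 3 pumps in another type was 39.1 CPM, of Abcg2 in oligodendrocyte precursor cells. Of 8 tight junction genes above 20 CPM, Cldn5, Esam and Lsr fulfilled the rule. Lsr, which marks contacts of 3 cells, stood at 131 ± 32.7 CPM against 5.70 CPM in tanycytes. Tjp1, a scaffold gene of tight junctions, stood at 383 ± 21.9 CPM against 86.6 CPM in astrocytes but missed the rule in at least 1 mouse. Ocln, the occludin gene, had 171 ± 14.5 CPM against 128 CPM in ependymal cells, and Jam2 had 188 ± 10.8 CPM against 200 CPM in committed oligodendrocyte precursors. None of 5 genes of caveolae above 20 CPM fulfilled the rule, too few genes to set against that share. Cav1, the caveolin gene, stood at 174 ± 43.4 CPM, and Mfsd2a, whose protein holds caveolar transport down, was at the level given above (SD, n = 4 for all means).

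Genes of signalling pathways were then taken by their roles. The share to set beside each count here is the 3.21% of all genes at 20 CPM that fulfilled the rule. Of 16 Wnt and beta-catenin genes above 20 CPM, 7 fulfilled it. Receptor components were Fzd6 with 130 ± 12.0 CPM and Adgra2, the partner of Reck in reading Wnt7 ligands, with 61.3 ± 7.51 CPM. Fzd4 had 63.4, 65.0, 121 and 55.6 CPM, highest in mouse 30. Among nuclear factors, Lef1 stood at 303, 243, 243 and 273 CPM and at most at 6.32 CPM elsewhere, and Tcf7 at 44.8 ± 9.07 CPM. Foxq1 and Foxf2, which barrier endothelium uses downstream, stood at 236 ± 20.7 and 127 ± 19.2 CPM. The feedback genes Axin2 and Nkd1 had 78.2 ± 16.9 and 50.1 ± 15.3 CPM and did not fulfil the rule, and Apcdd1 was listed at 0. Of 8 VEGF and angiopoietin genes, the receptors Flt1, Kdr, Flt4, Tek and Tie1 fulfilled it. Kdr, the main signalling receptor of VEGF, stood at 291, 438, 307 and 329 CPM. Angpt2, an antagonist of Tek, had 6.85, 0, 60.7 and 0 CPM, with 16 UMIs in mouse 30 and 4 in mouse 3 (SD, n = 4 for all means).

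The Notch genes Notch4, Dll4 and Jag2 fulfilled the rule, while Notch1 (221 ± 28.0 CPM) and the target Hes1 (1021 ± 281 CPM) did not, with 121 CPM of Notch1 in oligodendrocyte precursor cells and 1066 CPM of Hes1 in tanycytes. Of 7 BMP and TGF-beta genes only Id1, a target of BMP receptors, fulfilled it, with 1267, 1317, 1157 and 1302 CPM against 60.3 CPM in astrocytes. With so few genes this count is not set against the 3.21% of all genes. Smad7, the inhibitor of this pathway, stood at 99.3, 95.3, 34.2 and 98.1 CPM, with mouse 30 below the others. Of the genes that answer to blood flow, Nos3, the endothelial nitric oxide synthase, stood at 124 ± 15.9 CPM and Thbd, thrombomodulin, at 104 ± 20.5 CPM, and both fulfilled the rule. Klf2 and Klf4 stood at 765 ± 73.0 and 1104 ± 147 CPM, and microglia held 564 and 314 CPM of them (SD, n = 4 for all means).

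Receptors for the injected ligand were low in the endothelium. Fgfr1 stood at 41.1, 43.3, 41.7 and 21.3 CPM, with mouse 34 apart and below the others, and ependymal cells, the highest type, held 148 CPM. Fgfr3 stood at 83.0 ± 27.8 CPM against 875 CPM in astrocytes, and Fgfr2 at 11.3 ± 2.95 CPM against 218 CPM in oligodendrocytes. Of 10 feedback and target genes of the ERK cascade above 20 CPM, none fulfilled the rule. Over all genes 3.21% did, so this count says little about the list. Dusp6, an ERK phosphatase, stood at 104, 78.0, 129 and 103 CPM, Spry2 at 56.5 ± 11.8 CPM and Phlda1 at 114 ± 28.2 CPM, while Dusp4 was listed at 0. Etv4 and Etv5, transcription factors that follow FGF signals, stood at 0.949 ± 1.90 and 11.9 ± 3.28 CPM, and at 96.4 and 256 CPM in oligodendrocyte precursor cells. Among genes of the hormone pathways, Igf1r, the IGF1 receptor, stood at 894, 1191, 1127 and 1009 CPM against 230 CPM in ependymal cells, and Igfbp7, a binding protein of the same system, at 329 ± 78.5 CPM. Lepr, the leptin receptor, had 10.8 ± 6.57 CPM. Genes of cell division were nearly undetected, with 1 cell each holding a Mki67 or a Top2a UMI, or 0.079% (SD, n = 4 for all means).

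Plvap was then taken as a mark of fenestrated vessels. It was found in 5 endothelial cells, 2 each in mice 3 and 4 and 1 in mouse 34, or 0.395% (95% exact binomial interval 0.128 to 0.919). Plvap UMIs were found in 0.626% of astrocytes and 0.872% of oligodendrocyte precursor cells, types that should lack the gene, at median depths of 851 and 1020 UMIs. The endothelial share was thus at the background, and the planned comparison of Plvap-positive with Plvap-negative cells could not be fitted, since no mouse had 10 positive cells.

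The position of cells along the vessel tree was approached with arterial and venous genes. Single genes were sparse: Gja4, an arterial connexin, was found in 8.06% of endothelial cells, Sema3g in 114 cells, and Nr2f2, a venous transcription factor, in 17.7%. A gate therefore took cells with a UMI of any arterial gene and none of a venous gene, 245 cells, and the converse, 295 cells. A further 149 cells held both and 577 neither. The names arterial and venous cells below refer to this gate only. The venous list rested mostly on Nr2f2, Slc38a5 and Tmem252, found in 224, 129 and 118 cells. Ackr1 was found in 9 cells and Selp in 4. With the gate's own genes left out, the sums of the arterial and venous cells were compared within each mouse by the edgeR quasi-likelihood F test with mouse as a block. Of 1593 genes tested, 37 were called at an adjusted p below 0.05, or 2.32%, with 18 higher in arterial cells (1.13%) and 19 lower (1.19%).

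Tm4sf1, a membrane protein of endothelial protrusions, was higher in arterial cells, with 1216, 762, 1140 and 941 CPM in mice 3, 4, 30 and 34 against 526, 383, 719 and 505 CPM in venous cells. The groups did not overlap, and the log2 fold change was 0.94 ± 0.15 (SE, edgeR adjusted p = 1.19e-05). Epas1, a hypoxia-inducible factor, and Crip1, a LIM domain protein, were higher in 4 of 4 mice, by 0.70 ± 0.13 (SE, edgeR adjusted p = 0.000312) and 0.72 ± 0.13 on the log2 scale (SE, edgeR adjusted p = 0.000162). Mgp, an inhibitor of BMPs and calcification, was higher by 0.94 ± 0.21 and the chemokine gene Cxcl12 by 0.55 ± 0.13 on the log2 scale (SE). Glul, Amd1 and Stmn2 were also higher in all 4 mice, by 0.50 to 1.27. Of 25 identity genes, Ly6c1 (0.54) and Ly6a (0.39) were called higher, each in 3 of 4 mice, against 1.13% of all genes. The list median was 0.06.

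Tmsb10, an actin-binding thymosin, was the gene with the smallest p. It stood at 1996, 2268, 1881 and 1909 CPM in venous cells against 817, 577, 760 and 891 CPM in arterial cells, and its log2 fold change of arterial minus venous was -1.34 ± 0.12 (SE, edgeR adjusted p = 7.15e-14). Ctla2a, a cathepsin inhibitor, followed with -1.31 ± 0.17 (SE, edgeR adjusted p = 2.42e-08), and Car4, a membrane carbonic anhydrase of capillaries, with -0.97 ± 0.17 (SE, edgeR adjusted p = 0.000143). Of the carriers, Slc7a5, its heavy chain Slc3a2 and the cationic amino acid carrier Slc7a1 were lower in arterial cells, by log2 fold changes of -0.83, -0.96 and -0.74. Of 17 tested carriers these 3 were called, all lower, where 1.19% of all genes were called lower. Their list median was -0.30 against -0.00 over all genes. Of 11 immediate early genes, Dusp1, Jun and Zfp36 were called, all lower in arterial cells, against the same 1.19%. The list median was -0.43. Nampt, Itm2a, Tmsb4x, Fn1 and Rpl38 were lower as well, by -1.32 to -0.30.

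Of 11 mural genes tested in the same contrast, 3 were called and 8 were not, against 2.32% called over all genes. Myh11, the myosin of smooth muscle, was higher in arterial cells (146, 115, 100 and 158 CPM against 26.6, 47.9, 82.2 and 60.4 CPM), as was Rgs5 by 0.39, while the pericyte channel gene Kcnj8 was lower by -1.28 on the log2 scale. The 3 tested smooth muscle genes had a median of 1.17, and the 8 tested pericyte genes a median of -0.11 and a range of -1.28 to 0.39. Of the gated cells, 132 arterial and 161 venous cells held at least 3 mural UMIs of at least 2 genes, and Nr2f2, a gate gene, was itself higher in such cells. The part of mural RNA in the arterial and venous calls was not tested. The planned contrasts needed 3 mice, and without mural UMIs only mice 3 and 34 had 10 cells in each gate. The fits on 2 mice below were chosen after seeing the data, and none was made on cells without mural UMIs. With Nr2f2 out of the venous list, 64 of 1176 genes were called, 33 of the 37 among them. DESeq2 called 3 of the 37 genes, Tm4sf1, Tmsb10 and Ctla2a, so the calls of the other genes named above rest on edgeR. Without the replicate block edgeR called 4. Mouse 3 decided much of the count: without it 1 gene, Tmsb10, was called. Within mice 3 and 34, 29 genes were called, and within mice 4 and 30 none of 884 was, with 54 at an unadjusted p below 0.05 by edgeR. All 31 of the 37 genes that were tested within mice 4 and 30 kept their direction. Mice 4 and 30 had 30 and 46 arterial and 44 and 71 venous cells. In mice 3 and 34 there were 75 and 94 arterial and 99 and 81 venous cells. The part of cell number in these counts of calls was not tested.

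**Figure D2:**
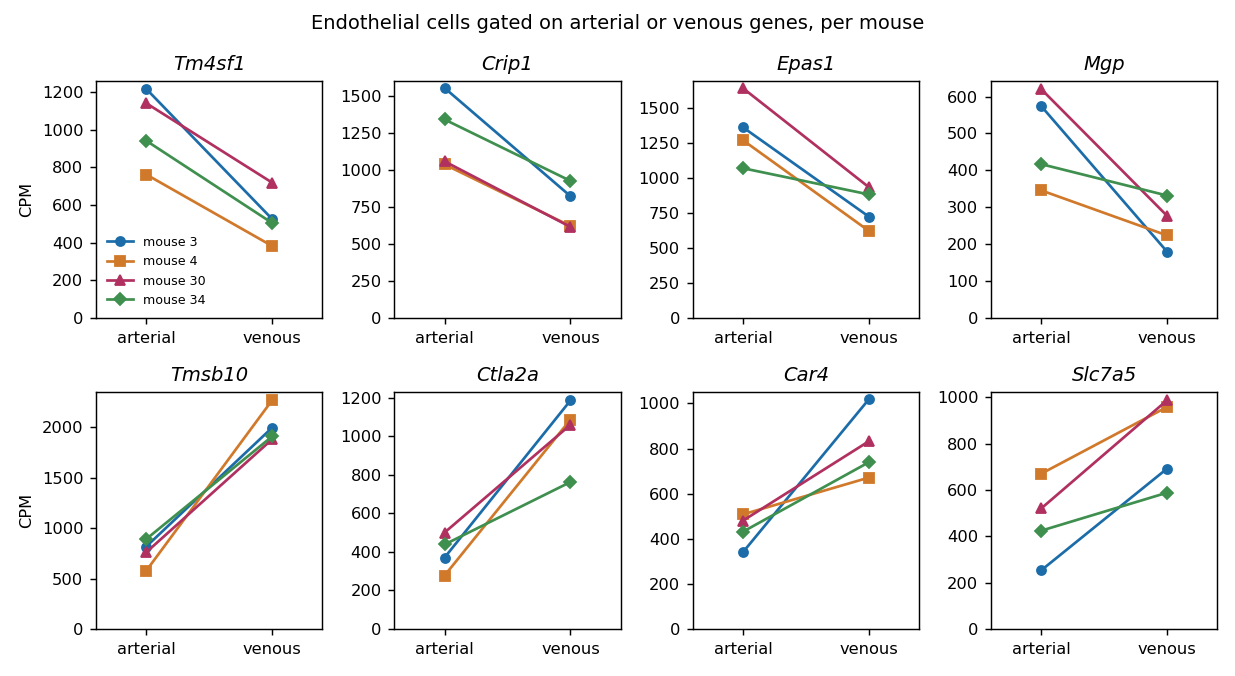
CPM of 8 genes in the arterial and the venous gate, each line joining the 2 gates of 1 mouse. Tm4sf1, Crip1, Epas1 and Mgp lie higher in the arterial gate in all 4 mice, and Tmsb10, Ctla2a, Car4 and Slc7a5 lie higher in the venous gate.

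How many endothelial cells also held mural transcripts was counted with 14 pericyte and smooth muscle genes. At least 1 mural UMI was found in 923 of 1266 cells, or 72.9% (95% exact binomial interval 70.4 to 75.3). The shares were 65.2%, 85.1%, 76.9% and 74.0% in mice 3, 4, 30 and 34. At least 2 UMIs were found in 766 cells (60.5%), and at least 3 UMIs of at least 2 genes in 607 cells (47.9%). After each cell was thinned to 480 UMIs, 781 cells (61.7%) still held a mural UMI. The same list was found in 5.89% of oligodendrocytes, 5.26% of microglia, 10.2% of tanycytes and 14.7% of astrocytes. Median depths of these types were 1136, 939, 1143 and 851 UMIs. It was in 14.8% of ependymal cells and 10.1% of committed oligodendrocyte precursors, at 1131 and 1771 UMIs. Astrocytes held Rgs5 in 2.18% and the rest of the list in 13.0% of cells. How much of these shares is stray RNA was not tested. In oligodendrocyte precursor cells, which express the list member Cspg4 themselves, the share was 37.6%. The endothelial share was thus above these types in every mouse, and it was 54% to 70.7% per mouse after thinning. Of the 68 vascular leptomeningeal cells, 73.5% held a mural UMI.

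**Figure D3:**
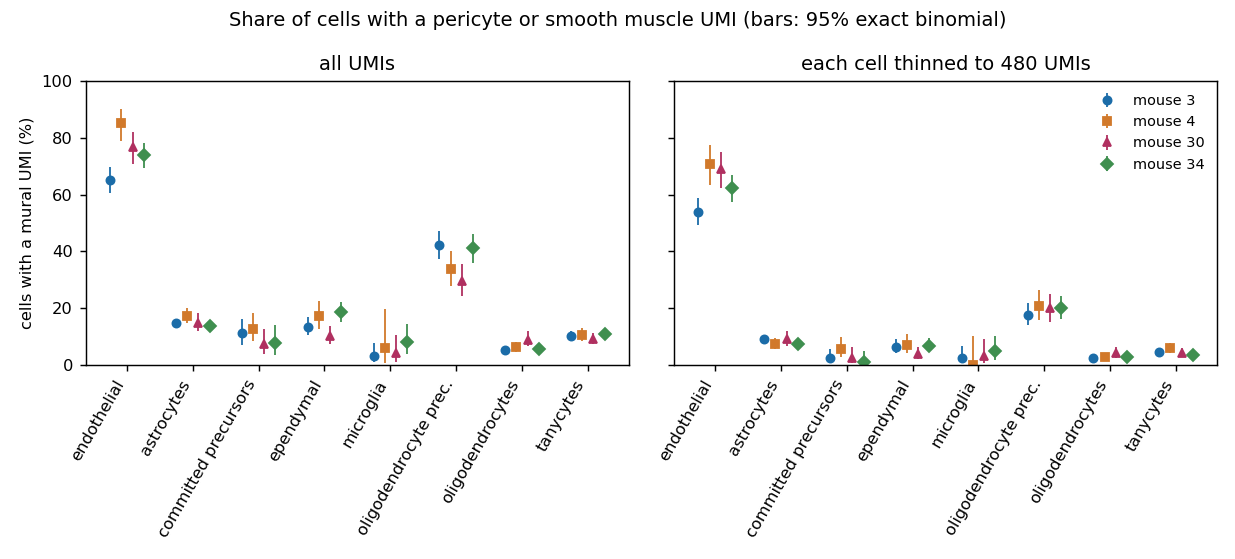
Share of cells with at least 1 UMI of 14 mural genes, in percent, per mouse and cell type, with 95% exact binomial intervals as bars; all UMIs are on the left and cells thinned to 480 UMIs on the right. Endothelial cells lie between 65.2% and 85.1% with all UMIs, above every other type shown.

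Pericyte genes made up most of this signal. Rgs5, a regulator of G protein signalling and the most widespread of them, was found in 815 cells (64.4%) and in 2.18% to 2.70% of the cells of the 7 other types. Its level was 1661, 2166, 2292 and 1786 CPM. Without Rgs5 the list was still found in 718 cells (56.7%). Vtn, which encodes vitronectin, was found in 38.4% of endothelial cells, Higd1b in 31.5% and Pdgfrb, the receptor that recruits pericytes, in 22.1%. Pericyte genes were found in 899 cells and smooth muscle genes in 429, with 405 cells holding both kinds. Acta2, the actin of smooth muscle, was found in only 53 cells, and it was the gene of largest dispersion between mice among 1490 genes at 100 CPM, with 130, 4.33, 167 and 203 CPM. Mouse 4 had 1 cell with an Acta2 UMI, and in mouse 30 a single cell held 28 of the 44 Acta2 UMIs. Bmx, an arterial kinase, was found in 0 of the 174 endothelial cells of mouse 4, which allows up to 1.72% of cells with a UMI by a limit of 3 counts, and in 12 to 15 cells of each other mouse.

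Cells with mural UMIs held endothelial UMIs as well. Of the 607 cells with at least 3 mural UMIs of at least 2 genes, called mural-positive here, 605 held a UMI of the endothelial identity list, with a median of 17 such UMIs. Their summed identity list stood at 13390 CPM and their mural list at 8254 CPM, and the identity list of the 343 mural-negative cells stood at 15383 CPM. The mural-positive cells were deeper, with medians of 1391 against 850 UMIs, and had a lower mitochondrial share, at 9.38% against 13.1%. Their median doublet score, deposited by the authors for each cell, was 0.069 against 0.054, but in mouse 30 it was 0.0517 against 0.0825. A further 316 cells lay between the 2 gates.

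The mural-positive and mural-negative sums were then compared within each mouse in the same way, with the 14 mural genes left out. Of 2312 genes tested, 162 were called, or 7.01%, with 88 higher (3.81%) and 74 lower (3.20%) in mural-positive cells. On the same genes, 63 were called higher and 14 lower with no replicate block, and 45 higher and 18 lower by DESeq2, so most of the lower calls rest on edgeR with the block. Cald1, the actin-binding caldesmon gene of contractile cells, stood at 1264, 893, 1025 and 1149 CPM in mural-positive cells of mice 3, 4, 30 and 34, against 118, 165, 154 and 174 CPM in mural-negative cells. The groups did not overlap, and the log2 fold change was 2.92 ± 0.17 (SE, edgeR adjusted p = 2e-15). Rgs4 stood at 423 ± 66.1 against 22.8 ± 21.4 CPM, and Ndufa4l2, a mitochondrial protein, at 371 ± 53.3 against 43.4 ± 38.0 CPM (SD, n = 4 for each). Mfge8, a secreted glycoprotein, Mylk, the myosin light chain kinase, Zic1, Sept4, Mgp and Ptn were higher as well, in 4 of 4 mice, by 0.99 to 3.70 on the log2 scale. Over the mice, the mural-negative sums held only 10 UMIs of Rgs4, 12 of Ndufa4l2 and 5 of Zic1. Such genes passed the filter on low counts through their mural-positive sums, so the size of these folds is uncertain.

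Lists drawn up by role moved as follows. Of 7 basement membrane genes tested, Nid1 (2.47 ± 0.44) and Lamc1 (1.46 ± 0.38, higher in 3 of 4 mice) were called higher (log2 fold change ± SE). Over all genes 3.81% were called higher. Lamc1 lost its call both with DESeq2 and with no replicate block, and Notch1, named next, lost it with DESeq2. Notch1 was higher by 0.88 ± 0.23, Nr2f2 by 2.53 ± 0.33 and Igfbp7 by 0.95 ± 0.19, each in 4 of 4 mice. Igf2, the growth factor gene taken here as a mark of leptomeningeal cells, was higher by 3.01 ± 0.39. Rarres2, a member of the ependymal list that encodes chemerin, was higher by 2.13 ± 0.32, and no other gene of that list passed the filter on low counts. Of 3 tested ERK genes, Phlda1 was called, higher by 1.92 ± 0.36. Most of these genes had few UMIs in the mural-negative sums. There were 7 of Nid1, 8 of Igf2, 14 each of Nr2f2 and Phlda1, 15 of Lamc1 and 16 of Rarres2.

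A few genes of the endothelium were called lower in mural-positive cells. Of 25 identity genes tested, 3 were called, all lower, where 3.20% of all genes were called lower. The list median was -0.26 against -0.01 over all genes. Egfl7 stood at 825, 859, 688 and 1014 CPM against 1336, 1023, 907 and 1234 CPM, with a log2 fold change of -0.51 ± 0.11 (SE, edgeR adjusted p = 0.00105). The others were Ly6c1 (-0.33) and Ly6a (-0.29). Of 18 carriers, Slco1a4 (-0.46) and Slc2a1 (-0.31) were called, and the list median was -0.27. Cxcl12 was lower by -0.38 and Tmem252, a venous gene, by -1.11, each in 3 of 4 mice, and Id1 by -0.39 in 4 of 4. Each of these 8 lower genes (Egfl7, Ly6c1, Ly6a, Slco1a4, Slc2a1, Cxcl12, Tmem252 and Id1) lost its call both with DESeq2 and with no replicate block. None of 7 tight junction and 3 efflux genes was called by edgeR or DESeq2. The medians were -0.18 and -0.45, and 2 genes of each list had an unadjusted edgeR p below 0.05.

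Mitochondrial genes and some genes of glia were called lower, where 3.20% of all genes were. Of 13 mitochondrial genes, 12 were called lower with a median of -0.54, among them mt-Co3 at -0.59 ± 0.06 (SE, edgeR adjusted p = 1.54e-09). Of 4 oligodendrocyte genes, Mbp and Mobp were called, at -0.72 and -0.90, of 5 astrocyte genes Slc1a2 and Aldoc, at -0.40 and -0.55, and the metallothionein gene Mt1 was lower at -0.64. Of 80 ribosomal protein genes, 19 were called, all lower, with a median of -0.19. Depth and mitochondrial share differed between the gates as given above, and their part in these differences was not tested. With every cell thinned to 480 UMIs before the gates were set, 68 of 624 genes were called, 53 of them among the 162. Within mice 3 and 34, 285 of 3898 genes were called, and within mice 4 and 30, 36 of 1618. Mice 4 and 30 had only 26 and 52 mural-negative cells, against 156 and 109 in mice 3 and 34.

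**Figure D4:**
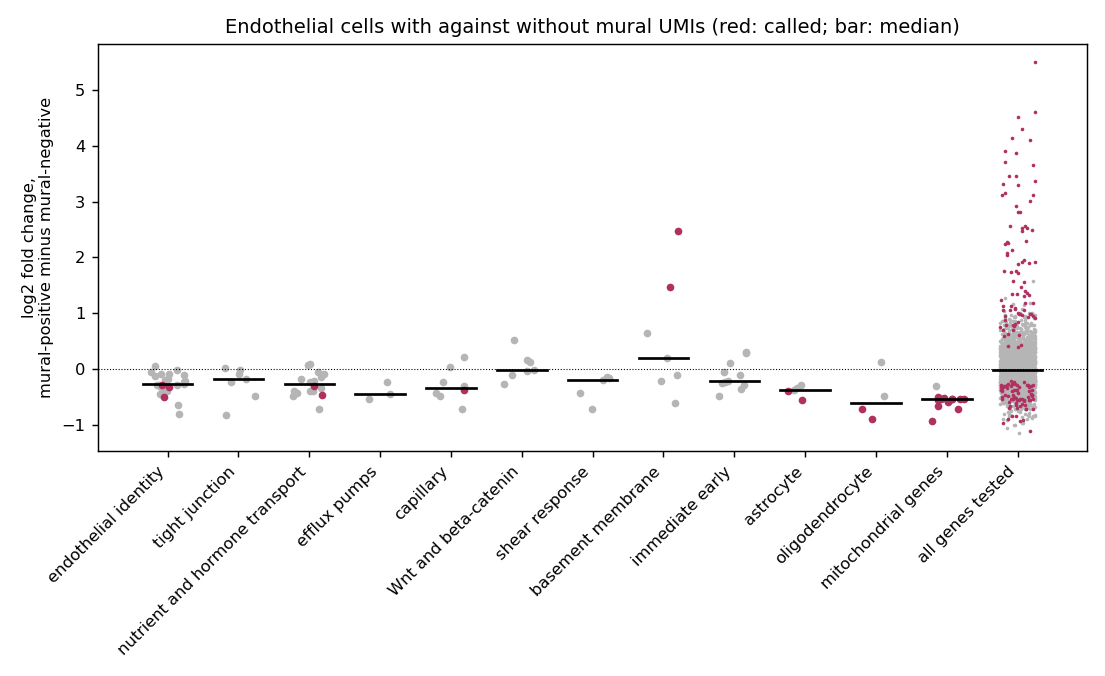
Log2 fold change of mural-positive minus mural-negative endothelial cells for the tested members of 12 gene groups and for all 2312 genes tested, 1 point per gene, red where the adjusted p is below 0.05 and with the median as a bar. The identity list has a median of -0.26, and the mitochondrial genes lie below 0.

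A small set of cells also held oligodendrocyte transcripts. One of the authors' clusters held 20 cells of these mice, all endothelial by label, and in it the oligodendrocyte list stood at 18308 CPM against 2634 CPM in the other endothelial cells. Their identity list stood at 9979 CPM and their median doublet score at 0.179. Leaving these cells out gave 171 calls in the mural and 37 in the arterial contrast.

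Differences between the mice came last. Genes of endothelial activation (adhesion molecules, chemokines and their regulators) summed to 990, 728, 3138 and 1163 CPM in mice 3, 4, 30 and 34, so that mouse 30 was above the other 3. Lcn2, lipocalin 2, had 74 UMIs in 10 cells of mouse 30 and none in the 1041 endothelial cells of the other mice, which allows up to 0.288% of cells with a UMI by a limit of 3 counts and sets no limit on cells that express the gene. The chemokine gene Ccl2 was found in 13.3% of endothelial cells of mouse 30 and in 0.67%, 1.15% and 0.239% of those of mice 3, 4 and 34. Cxcl1 stood at 391 CPM in mouse 30 against 26.0 to 37.7 CPM, Cxcl10 at 121 against at most 1.71 CPM, and Icam1 at 243 against 30.3 to 72.0 CPM. Nfkbia, the inhibitor that NF-kB induces, stood at 743, 550, 1514 and 911 CPM.

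The same list was also highest in mouse 30 in the other types. In ependymal cells it summed to 8481 CPM in mouse 30 and to at most 268 CPM in the other mice, in tanycytes to 1821 against at most 265 CPM, and in microglia to 5374 against at most 3170 CPM. In mouse 30, Cxcl10 was found in 8.44% of endothelial cells, 7.86% of astrocytes and 73.9% of ependymal cells. It was in 4.65% of its oligodendrocytes, and 1 endothelial cell held 10 of the 32 endothelial UMIs. Ccl2 was found in 7.27% of its astrocytes, Cxcl1 in 3.54%, Icam1 in 1.38% and Lcn2 in 0.393%, against 13.3%, 14.7%, 14.7% and 4.44% of its endothelial cells. The binomial intervals for Ccl2 were 5.17 to 9.88 and 9.18 to 18.5. They cover counting error within this mouse only. The genes were picked for their level in mouse 30, and no test was made. Ependymal cells of mouse 30 held Ccl2 in 47.6%, Cxcl1 in 39.5% and Lcn2 in 5.26%, with 74 Lcn2 UMIs as in the endothelium. Its microglia held Ccl2 in 36.8%, Cxcl1 in 13.7% and Icam1 in 35.8%. The globin gene Hbb-bs was found in 24.6% of its astrocytes and 21.3% of its endothelial cells. The fibroblast and leptomeningeal list (6 genes) summed to 429 CPM in endothelial cells of mouse 30 against 156 to 188 CPM, and the red blood cell list (5 genes) to 505 against 110 to 204 CPM. The part of other cells' RNA in these levels was not tested.

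Ackr1, the atypical chemokine receptor of venules, stood out within mouse 30. It was found in 8 of the 225 endothelial cells, with 39 UMIs, and in 1 endothelial cell of the other mice. It was also found in 8.08% of committed oligodendrocyte precursors over all mice and in 0.393% of the astrocytes of mouse 30. Of these 8 cells, 6 held Lcn2, 4 Selp, which encodes P-selectin, 5 Vcam1 and 5 Vwf, the von Willebrand factor gene. Of other venous genes, Nr2f2 was found in 1 of the 8 cells and 15.7% of the other cells of mouse 30, Slc38a5 in 0 of the 8 and 8.29%, and Tmem252 in 5 of the 8 and 16.1%. The adhesion gene Icam1 was found in 4 of the 8 and 13.4%. They held 70 of the 74 Lcn2 UMIs. Of the other 217 cells of mouse 30, 1.84% held Lcn2, none held a Selp UMI, which allows up to 1.38% of cells with one by a limit of 3 counts, and 17.1% held Vwf. The capillary gene Car4 was found in 1 of the 8 cells and in 52.1% of the others, and Cldn5 in 2 of the 8 and 57.1% of the others. Abcb1a was found in 5 of the 8 and 49.3% of the others, and Slc2a1 in 6 of the 8 and 79.3%. Without these 8 cells the activation list of mouse 30 summed to 2516 CPM, still above the 728 to 1163 CPM of the other mice. The 8 cells were chosen by their Ackr1 UMIs after the levels were seen, and no test was made. Without mouse 30, the mural contrast called 179 genes and the arterial contrast 27, and 236 genes fulfilled the rule of size.

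**Figure D5:**
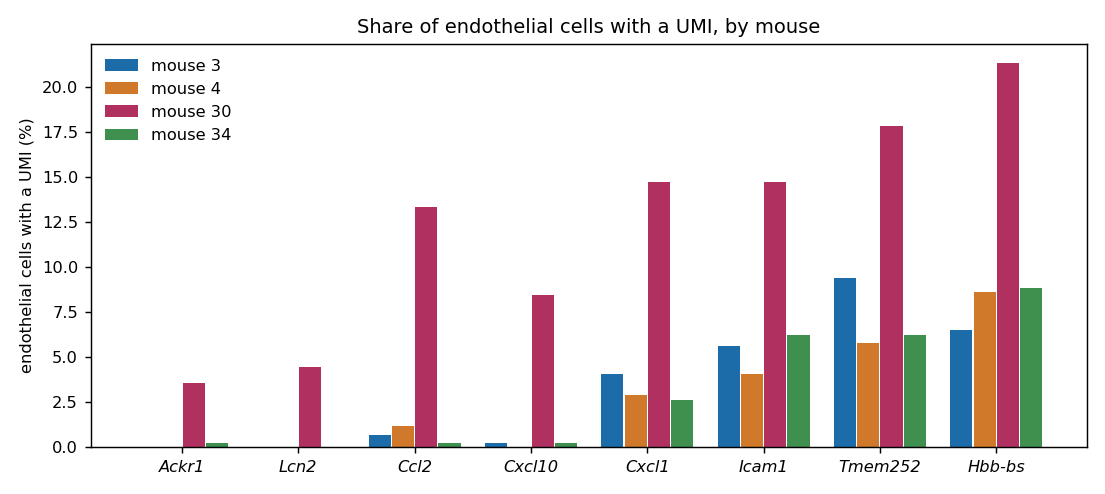
Share of endothelial cells with a UMI of 8 genes, in percent, 1 bar per mouse. Mouse 30 is highest for each, for example 13.3% against at most 1.15% for Ccl2 while the 21.3% of Hbb-bs is not above the 24.6% of astrocytes of that mouse.

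Of the 15 genes of largest dispersion, 5 had both mice 4 and 30 above both mice 3 and 34, 4 had them below, and 6 did neither. These genes were chosen for their spread between the same mice, and the share over all genes was not counted. The tally is therefore a description and tests nothing. Over all genes, the endothelial sums of mice 4 and 30 had a chi-square per degree of freedom of 2.28, against 2.17 for mice 4 and 34. Vps8, a trafficking gene, stood at 209, 754, 641 and 268 CPM in mice 3, 4, 30 and 34, and Cnot3, of the deadenylase complex, at 61.7, 243, 178 and 58.9 CPM. The mitochondrial gene mt-Atp8 stood at 289, 641, 698 and 267 CPM, and the ribosomal copy Rpl9-ps6 at 375, 113, 186 and 253 CPM. In the first 3 of these genes both values of mice 4 and 30 lay above both of mice 3 and 34, and in Rpl9-ps6 below. Rpl9-ps6, Rpl10-ps3 and Gm10076 share sequence with other genes, so their counts are uncertain. By the labels 3 whole-cell libraries shared a flow cell, but not which, so the part of sequencing in these differences was not tested. Ptgds, the prostaglandin D synthase gene of leptomeningeal and glial cells, stood at 247, 308, 1556 and 370 CPM, highest in mouse 30. The common coefficient of variation between the mice over the 1490 genes was 0.140.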

How the data were processed

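UMI counts were deposited by the authors as whole numbers per gene and cell for 16411 gene symbols, with a cell type label, clusters, a mitochondrial percent and a doublet score as a fraction between 0 and 1 for each cell; the authors had filtered the cells, and their treatment of doublets is not stated in the labels; no caller was run. The submitters' processing notes name Cell Ranger 1.2, Seurat and the builds GRCm38, mm10 and GRCh38. A further 50172 cells of 12 libraries that are not among the labelled samples were not used, and labelled mice 12 and 37 had no cells in the table. Counts were summed per mouse and type or gate, with at least 10 cells per mouse and gate and 20 per mouse and type. edgeR 4.0.16 (R 4.3.3) used TMM scaling, filterByExpr, mouse as a block and Benjamini-Hochberg adjustment over all genes tested, with calls at an adjusted p below 0.05, and standard errors were derived from F. It was tested on simulated data. Both gates of a pair come from the same mouse, and their deviations from the gate means correlated across genes at 0.11 to 0.29 within each mouse. DESeq2 1.42.0, no block, DESeq2 size factors, no filter, thinning to 480 UMIs, leaving out the 10% highest doublet scores or each mouse, and other gates were alternatives. Lists and members were chosen with earlier results of these data known. Named genes were list members, the 20 genes of largest ratio at 100 CPM or more, in each contrast the 10 of smallest p per direction that were called and moved alike in every mouse, and the 15 genes of largest dispersion; Utrn, Clec2d, Ushbp1 and Ccdc141 are named for a motif. Depth was 230808 to 611509 UMIs per endothelial sum, and binomial intervals cover counting error only. Genes listed at 0 in all cells may have been set to 0 by a filter. Some genes that these rules select are not reported here.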

Additional observations from a re-analysis of the deposited data

Results flagged for a closer look

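A value is given here where 1 of the 4 mice lay so far from the others that its gap to the nearest, relative to the whole range, passed Dixon's 95% critical value. Of 231 values screened, 18 did so, or 7.79%, and chance gives about 1 in 20. Without the values chosen for their dispersion it was 15 of 219, or 6.85%. In 12 of the 18 the mouse apart was mouse 30, high in 11 of them. Of the activation genes, mouse 30 had 281 CPM of Lcn2 (0 in the others), 285 CPM of Ccl2 (at most 8.67), 121 CPM of Cxcl10 (at most 1.71) and 391 CPM of Cxcl1 (at most 37.7). The venous gene Ackr1 stood at 148 CPM (at most 1.64). Carrier and Wnt receptor genes followed, with 1875 CPM of Slc2a1 (at most 1321) and 121 CPM of Fzd4 (at most 65.0). Of genes of leptomeningeal or blood cells, mouse 30 had 83.5 CPM of Dcn (at most 22.9), 213 CPM of Igf2 (at most 108), 254 CPM of Hbb-bs (at most 81.8) and 1556 CPM of Ptgds (at most 370). Smad7 was low in mouse 30, at 34.2 CPM (at least 95.3). Mouse 4 was high in Slc1a3 (442 CPM, at most 361 in the others), Gm10076 (754, at most 224) and Rpl13 (1456, at most 582). Mouse 3 was low in Sema3g (65.1 CPM, at least 87.3) and Usp18 (22.3, at least 26.0). Mouse 34 was low in Fgfr1 (21.3 CPM, at least 41.1). Ptgds, Gm10076 and Rpl13 had been chosen for their dispersion.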

How the results depend on the processing

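Named genes kept their direction in each alternative in which they were tested, except Cxcl12 in the mural contrast, which stood at 0.07 within mice 4 and 30. In the arterial contrast 25 of the 28 named genes lost their call under DESeq2, 24 without the replicate block and all 23 tested within mice 4 and 30. In the mural contrast 12 of 39 lost it under DESeq2, 13 without the replicate block and 14 within mice 4 and 30; Lamc1, Slc1a2 and Aldoc, beside 8 endothelial genes, lost it under both of the first 2, Notch1 under DESeq2, and Mbp and mt-Nd2 without the block. With thinned cells only 20 of 28 named genes were tested in the arterial and 32 of 39 in the mural contrast. The arterial contrast called 37 genes, and the count depended on the settings: 4 with no replicate block, 3 with the DESeq2 Wald test, 15 with cells thinned to 480 UMIs, 64 without Nr2f2 in the venous list (chosen after seeing the data), 0 within mice 4 and 30, and 1 to 41 with each mouse left out. The mural contrast called 162 genes, against 77 with no replicate block, 63 with DESeq2, 68 with thinned cells, 305 without Rgs5 in the list, 285 within mice 3 and 34 and 36 within mice 4 and 30 (the last 3 chosen after seeing the data), and 95 to 186 with each mouse left out. All 77 calls without the block and all 63 of DESeq2 were among the 162. For the rule of size, 206 genes became 352 at 2-fold, 121 at 8-fold, 122 at 100 CPM, 140 without cells with a mural UMI and 308 by the ratio of means (chosen after seeing the data), and 217 to 240 with each mouse left out. The share of endothelial cells with a mural UMI, 75.3% as a mean over the mice, became 64% with thinned cells, 63.1% at 2 UMIs, 50% at 3 UMIs of 2 genes and 59.1% without Rgs5, and it was 72 to 78.6% with each mouse left out. The share of endothelial cells among all cells, 6.35%, became 8.69% without astrocytes and 5.97 to 6.64% with each mouse left out. Comparisons on Plvap, and the arterial contrast without mural cells, were not run because fewer than the planned 3 mice had 10 cells in each gate. Mice 4 and 30 had fewer cells in each gate than mice 3 and 34, so counts of calls within these pairs are not alike in power. Counts limit genes under about 20 CPM most.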
